A study of Mus musculus with 6 samples.

Results

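Immediate early genes are switched on within minutes of a stimulus, from factors already present in the cell. The 10 described here, Fos, Fosb, Jun, Junb, Egr1, Npas4, Arc, Nr4a1, Btg2 and Ier2, were taken by symbol from a table of 55335 genes, and each symbol was found once. They were followed in 6 RNA libraries made from mouse GABAergic interneurons, inhibitory cells of the forebrain, prepared from C57BL/6 wild-type embryos at embryonic day 14.5 and kept in culture. In 3 libraries (AAV-shbrpf1) the cells carried an adeno-associated virus (AAV) with a short hairpin against Brpf1, a scaffold subunit of histone acetyltransferase complexes, and in 3 (AAV-scramble) a virus with a scrambled hairpin. Cultures of both groups were therefore infected, for 12 hours, and the share of cells that took up the virus is not stated. No uninfected library was analysed here. One label field names the source neural progenitor cells while the sample titles name GABAergic interneurons. Neither the cell type that expresses the hairpin nor the time between infection and harvest is stated in those labels. Titles carry a number from 1 to 3 in each group. Its meaning is not stated, nor whether the libraries of one group derive from different cultures or animals. The p-values below therefore measure only the spread between these libraries, which may be technical.

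Most of the 10 encode transcription factors. In neurons, calcium entry and kinase cascades activate factors such as CREB and SRF, which are bound at these genes before the stimulus, and the transcripts that follow are short-lived, so their level follows recent activity, growth factors and handling of the cells. Their products bind the promoters and enhancers of later genes, and in GABAergic interneurons as in excitatory neurons this second set includes secreted peptides and synaptic proteins. The genes are compact. On GRCm38 they span from 1524 bp for Ier2 to 20527 bp for Nr4a1, and Jun and Ier2 have a single exon.

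Promoters of 7 of the 10 were matched by symbol in RefSeq (build GRCm38.p6), with Arc, Egr1 and Ier2 left out, and 5 are shown because they contrast genes that were low in the libraries numbered 3 (Fos, Npas4 and Nr4a1) with those that were high there (Jun and Btg2). Each line is the 250 bases before the start that RefSeq gives, 5′ to 3′ on the gene's strand, and capitals mark TGACG read on either strand (CGTCA on the strand shown), the core of the cAMP response element. The windows lie at chr12:85473640-85473889 on the plus strand for Fos, chr19:4989972-4990221 on the minus strand for Npas4, chr15:101266596-101266845 on the plus strand for Nr4a1, chr4:95052223-95052472 on the minus strand for Jun and chr1:134079156-134079405 on the minus strand for Btg2.
Fos: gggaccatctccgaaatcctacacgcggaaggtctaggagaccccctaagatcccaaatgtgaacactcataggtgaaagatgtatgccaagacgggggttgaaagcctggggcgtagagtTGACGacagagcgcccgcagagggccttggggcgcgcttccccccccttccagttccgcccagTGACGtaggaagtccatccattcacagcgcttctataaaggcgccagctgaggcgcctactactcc
Npas4: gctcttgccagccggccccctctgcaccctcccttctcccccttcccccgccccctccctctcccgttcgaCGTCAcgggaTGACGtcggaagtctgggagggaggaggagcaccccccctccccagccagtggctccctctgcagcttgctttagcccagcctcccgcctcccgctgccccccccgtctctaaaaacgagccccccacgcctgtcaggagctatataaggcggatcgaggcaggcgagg
Nr4a1: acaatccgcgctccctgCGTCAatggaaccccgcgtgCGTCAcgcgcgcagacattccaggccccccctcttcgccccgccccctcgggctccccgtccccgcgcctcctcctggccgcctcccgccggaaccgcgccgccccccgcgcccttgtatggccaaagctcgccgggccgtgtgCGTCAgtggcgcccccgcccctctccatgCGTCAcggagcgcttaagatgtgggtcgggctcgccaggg
Jun: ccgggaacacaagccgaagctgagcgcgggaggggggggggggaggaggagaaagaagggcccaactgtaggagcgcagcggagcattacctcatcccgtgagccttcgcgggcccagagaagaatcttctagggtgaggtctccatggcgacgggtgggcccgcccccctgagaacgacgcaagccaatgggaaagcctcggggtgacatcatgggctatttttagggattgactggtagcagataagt
Btg2: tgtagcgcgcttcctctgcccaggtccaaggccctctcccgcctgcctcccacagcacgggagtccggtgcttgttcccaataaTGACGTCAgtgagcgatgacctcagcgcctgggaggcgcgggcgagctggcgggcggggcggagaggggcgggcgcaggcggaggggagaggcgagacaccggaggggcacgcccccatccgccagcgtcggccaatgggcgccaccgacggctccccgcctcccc

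TGACG on either strand was present in 6 of the 7 windows, including those of Fosb and Junb, and absent from that of Jun, while 17.8% of 32851 RefSeq windows of the same length held it. The Nr4a1 window held it 4 times, at 233, 213, 69 and 40 bases before the start. The full palindrome TGACGTCA, which overlaps itself as TGACG on both strands, was found in 1 of the 7 windows, that of Btg2, against 1.55% of all windows. The AP-1 site TGACTCA, on either strand, was in 0 of the 7 and in 4.46% of all windows, and the CArG box, the binding motif of SRF, was in 0 of the 7 and in 1.47%. TATAAA on the plus strand was in the Fos window and in 7.59% of all. The RefSeq starts of Nr4a1 and Npas4 lie inside the longer gene spans of GENCODE given below, and so do their windows. These matches describe letters in a window and were not tested against the expression values. Only these patterns were searched, within 250 bases, and the promoters of Arc, Egr1 and Ier2 were not searched. A site listed as absent may therefore lie farther upstream or in a variant form. The Jun window, for instance, holds tgacatca, which none of these searches counts.

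Values are FPKM, fragments scaled to transcript length and library depth, and the depth implied by the steps between low values was 13.1 to 19.3 M fragments in AAV-shbrpf1 libraries and 14.3 to 21.1 M in AAV-scramble libraries. Brpf1 itself was at 3.13, 4.58 and 3.78 FPKM in AAV-shbrpf1 libraries 1, 2 and 3, against 3.29, 5.45 and 4.84 FPKM in AAV-scramble libraries 1, 2 and 3, so it was lower in each same-number pair, and the groups overlapped (limma, log2 difference −0.18, adjusted p = 1). The 9 interneuron markers were all measured, with Sst highest in each library, and summed to 685 to 925 FPKM with AAV-shbrpf1 and 649 to 1116 FPKM with AAV-scramble, while the 6 glutamatergic markers summed to 0.0417 to 0.708 FPKM and 0.0347 to 0.950 FPKM. Of 8 microglial markers, Cx3cr1 was listed at 0 in all 6 libraries and Cd68 was the highest, at 0.962 to 1.35 FPKM and 0.790 to 2.59 FPKM. In bulk samples, fewer cells of a type and less RNA per cell cannot be told apart. Libraries with the same number resembled each other more than libraries with the same virus, and the numbers differed in composition: ribosomal RNA features made up 8.33% and 5.33% of the AAV-shbrpf1 and AAV-scramble libraries numbered 2, and 1.5% to 2.64% of the other 4, and endothelial and mural markers summed to 25.8 FPKM and 28.0 FPKM in those numbered 1, and 1.70 to 2.84 FPKM in the other 4. Most of the endothelial and mural sum in number 1 came from Acta2 and Tagln. Acta2 was at 11.6 FPKM with AAV-shbrpf1 and 11.5 FPKM with AAV-scramble there, and Tagln at 12.5 FPKM and 13.5 FPKM. That sum therefore mainly follows these genes rather than the whole list. Progenitor markers summed to 937, 284 and 802 FPKM in AAV-shbrpf1 libraries 1, 2 and 3, against 891, 315 and 804 FPKM in AAV-scramble libraries 1, 2 and 3. This sum was lowest in number 2, and most of it was Fabp7. Hes5 was lowest in number 1 in both groups and Vim in number 3 with AAV-scramble, while the remaining progenitor markers were lowest in number 2. Oligodendrocyte lineage markers summed to 129, 210.3 and 262 FPKM with AAV-shbrpf1 and 112, 222 and 279 FPKM with AAV-scramble, a sum highest in number 3 and made up mostly of Olig1. Both libraries numbered 3 lay highest for 4 of the 6 markers, whereas Sox10 and Cspg4 were highest in number 2 in both groups. The part of these differences in the results below was not tested.

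Of the AP-1 genes, whose products pair through leucine zippers, Fos, Fosb and Junb were lowest in the 2 libraries numbered 3, and Jun was highest there. Fos (chromosome 12, 85473890 to 85477273, plus strand) was at 8.48, 12.1 and 0.771 FPKM in AAV-shbrpf1 libraries 1, 2 and 3, against 14.7, 12.3 and 0.469 FPKM in AAV-scramble libraries 1, 2 and 3. The 4 libraries numbered 1 and 2 lay above 8 FPKM and the 2 numbered 3 under 1 FPKM, in both virus groups. Fosb (chromosome 7, 19302696 to 19310051, minus strand), a relative of Fos whose truncated form accumulates in neurons with repeated stimulation, had 0.380, 3.12 and 0.0675 FPKM with AAV-shbrpf1, against 1.24, 2.32 and 0.0307 FPKM with AAV-scramble. Its libraries numbered 3 rest on an estimated 4.23 and 2.41 fragments, so no fold against them is given. Junb (chromosome 8, 84974484 to 84978718, minus strand), a Jun relative that can also restrain AP-1, was at 2.81, 8.45 and 0.833 FPKM in AAV-shbrpf1 libraries, against 3.98, 9.75 and 0.747 FPKM in AAV-scramble libraries. Its order was number 2, then 1, then 3, with no overlap between numbers. Jun (chromosome 4, 95049034 to 95052222, minus strand), the main partner of Fos, had 23.7, 24.2 and 34.0 FPKM with AAV-shbrpf1 and 20.8, 25.1 and 33.7 FPKM with AAV-scramble. Jun was the most abundant of the 10 by its mean over the 6 libraries, varied 1.63-fold between its lowest and highest library, and was high in both libraries numbered 3. Jun overlaps the antisense gene Junos and Junb overlaps Prdx2 on the other strand, and since no source says whether counting used strand, their reads may be mixed.

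The remaining transcription factors, Egr1, Npas4 and Nr4a1, were also lowest in the libraries numbered 3. Egr1, a zinc finger factor on chromosome 18, was at 5.60, 19.7 and 1.95 FPKM in AAV-shbrpf1 libraries 1, 2 and 3, against 9.51, 19.2 and 1.79 FPKM in AAV-scramble libraries 1, 2 and 3. Npas4 (chromosome 19, 4984355 to 4990316, minus strand), a bHLH-PAS factor that neurons induce selectively on calcium entry, was at 8.82, 23.8 and 1.19 FPKM with AAV-shbrpf1 and 14.6, 24.8 and 0.720 FPKM with AAV-scramble. Both genes followed the order 2, 1, 3 without overlap between numbers, and between the libraries numbered 2 the ratio of AAV-shbrpf1 to AAV-scramble was 1.03 for Egr1 and 0.959 for Npas4. Nr4a1 (chromosome 15, 101254269 to 101274795, plus strand), an orphan nuclear receptor, had 2.24, 4.24 and 0.967 FPKM in AAV-shbrpf1 libraries, against 4.62, 4.58 and 0.601 FPKM in AAV-scramble libraries. Its values numbered 1 and 2 overlapped, and those numbered 3 lay below the other 4.

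Of the last 3, Arc, Ier2 and Btg2, the first 2 were low and Btg2 was high in the libraries numbered 3. Arc (chromosome 15, 74669083 to 74672570, minus strand), a synaptic effector that takes part in AMPA receptor endocytosis and forms capsid-like particles, was at 0.676, 9.15 and 0.410 FPKM in AAV-shbrpf1 libraries 1, 2 and 3, against 1.23, 10.8 and 0.440 FPKM in AAV-scramble libraries 1, 2 and 3. Unlike Fos, it was high in number 2 and low in both 1 and 3. Ier2 (chromosome 8, 84661331 to 84662854, minus strand), a nuclear protein of the rapid response, had 2.04, 4.78 and 1.503 FPKM with AAV-shbrpf1 and 2.85, 5.59 and 1.66 FPKM with AAV-scramble, in the same order 2, 1, 3. Ier2 and Junb lie 311630 bp apart. Btg2 (chromosome 1, 134075170 to 134079120, minus strand), an antiproliferative gene also induced by p53, was at 7.89, 5.32 and 12.5 FPKM with AAV-shbrpf1, against 6.03, 7.39 and 13.6 FPKM with AAV-scramble. Its 2 libraries numbered 3 lay above the other 4, which overlapped.

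**Figure D1:**
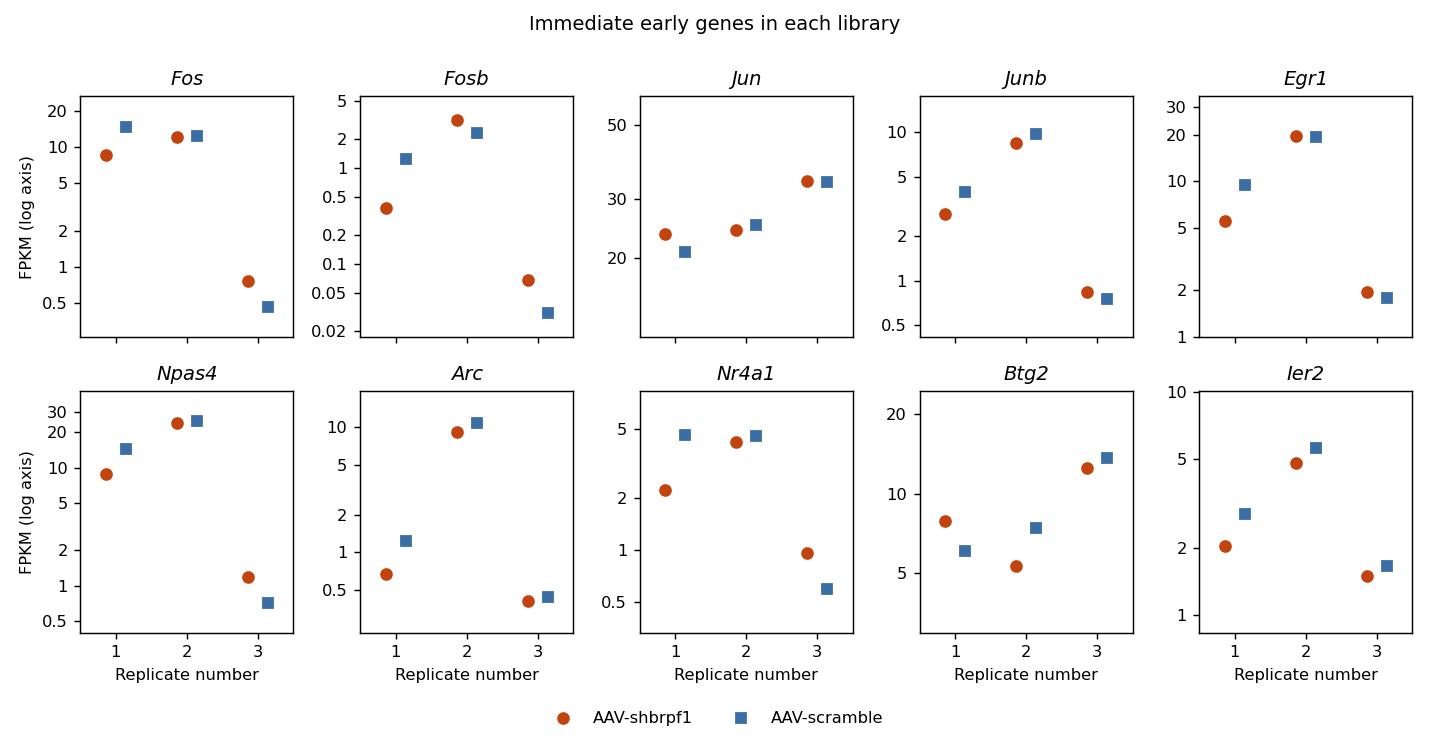
FPKM of each of the 10 genes (log axis, scale set per gene) against replicate number, with 1 point per library and colour for the virus. For 8 genes both libraries numbered 3 lie lowest, as for Npas4 at 1.19 FPKM with AAV-shbrpf1 and 0.720 FPKM with AAV-scramble, and for Jun and Btg2 highest.

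All 10 genes passed the filter on low values (a mean of 1 FPKM in a group). Fosb and Arc did so only through the libraries numbered 2, so their counts as higher in number 2 are not independent of the filter. With both libraries numbered 2 left out, 8 of the 10 were tested. Between the viruses, 0 of the 10 differed, as did 0% of the 12792 genes tested (limma on log2(FPKM + 1), adjusted p under 0.05), while 23 genes had an unadjusted p under 0.05 without the replicate number as a block and 280 with it. The AAV-shbrpf1 and AAV-scramble values overlapped for all 10, and groups did not overlap for 1.07% of all genes. Log2 differences (AAV-shbrpf1 minus AAV-scramble) ran from −0.22 for Arc to 0.05 for Jun, with limma's adjusted p of 1 for each. Fos averaged 7.10 ± 5.77 FPKM with AAV-shbrpf1 and 9.17 ± 7.63 FPKM with AAV-scramble (SD, n = 3 each), and its log2 difference was −0.16 with a 95% interval from −2.66 to 2.34. The intervals were narrower with the number as a block: that of Fos then ran from −0.66 to 0.33, that of Npas4 from −0.61 to 0.36 and that of Arc from −0.53 to 0.09, and no member passed. Exact two-sided permutation tests of 3 against 3 gave p from 0.7 to 1, where the smallest possible is 0.1. An exact sign-flip test over the 3 pairs gave its smallest possible p, 0.25, for Arc and Ier2, which were lower with AAV-shbrpf1 in 3 of 3 pairs, as were 11.3% of all genes. The direction moved when libraries were left out, while the block alone changed the intervals and not the differences. Without the block and without AAV-shbrpf1 library 3, which leaves the numbers unbalanced between the viruses, the difference was above 0 for 8 genes, from 0.04 for Ier2 to 0.82 for Npas4. It was below 0 for Jun at −0.12 and Btg2 at −0.34. Without AAV-scramble library 2 the difference was above 0 for the same 8, from 0.10 for Nr4a1 to 0.69 for Arc. Jun was then at 0.02 and Btg2 at −0.15. With the block and without both libraries numbered 3, the same 8 were below 0, from −0.19 for Fosb to −0.44 for Nr4a1 (Fos −0.38, Npas4 −0.36, Arc −0.31), with limma's adjusted p from 0.782 to 0.903. Btg2 was at −0.035 in that fit and Jun at 0.06.

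Within same-number pairs, the members differed most in pair 1. There AAV-shbrpf1 was below AAV-scramble in 8 of the 10 genes, as it was in 56% of all genes, and by over 1.5-fold on the log2(FPKM + 1) scale in 5 (Fos, Fosb, Egr1, Npas4 and Nr4a1), as it was in 1.62% of all genes. By over 1.5-fold higher were 0 members, against 1.36% of all genes. The median log2 difference of pair 1 was −0.54 over the members and −0.02 over all genes. Each pair holds 1 library per virus, so no test of a single pair was possible, and the intervals that follow cover counting error only, from fragments estimated at the depths above. The ratio of AAV-shbrpf1 to AAV-scramble FPKM in pair 1 was 0.576 for Fos (95% interval 0.501 to 0.663), 0.589 for Egr1 (0.523 to 0.664), 0.605 for Npas4 (0.545 to 0.671) and 0.485 for Nr4a1 (0.381 to 0.617). All 4 intervals lie below 1, and so do those of Fosb, Junb and Arc, whereas that of Ier2 reaches 1.02. For Jun the ratio in pair 1 was 1.14 (1.05 to 1.23) and for Btg2 1.31 (1.12 to 1.54), both above 1. How many of all genes have an interval that excludes 1 was not counted for any pair. These intervals therefore do not set the members apart from other genes. In both libraries of pair 1 the endothelial and mural sum was high mainly through Acta2 and Tagln. It was 25.8 FPKM with AAV-shbrpf1 and 28.0 FPKM with AAV-scramble, and its part in these ratios was not tested.

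On the log2(FPKM + 1) scale, no member passed 1.5-fold in pair 2 or pair 3. In pair 2, 0 members were over 1.5-fold lower or higher with AAV-shbrpf1, against 4.12% and 3.18% of all genes, and 8 were lower by any amount, against 59.7% of all genes. Its median log2 difference was −0.08 over the members and −0.05 over all genes. The ratios of pair 2 were 0.979 for Fos (0.854 to 1.12), 1.03 for Egr1 (0.955 to 1.11) and 0.850 for Arc (0.749 to 0.965), and Btg2, at 0.720 (0.607 to 0.854), turned from its direction in pair 1. Fosb, at 1.35 (1.09 to 1.67), turned as well, from 0.306 (0.197 to 0.477) in pair 1. Egr1 and Jun also crossed 1, with pair 2 intervals that hold 1. In pair 3 again 0 members passed 1.5-fold on that scale, which compresses values near 1 FPKM, against 1.11% of genes lower and 2.04% higher, and 3 were lower by any amount (Arc, Btg2 and Ier2), against 47.5% of all genes. As ratios of FPKM, Npas4 was at 1.65 (1.17 to 2.32) and Nr4a1 at 1.61 (1.01 to 2.56) in pair 3, with intervals above 1. Fos was at 1.64 (0.926 to 2.92) and Fosb at 2.20 (0.453 to 10.7), with intervals that hold 1. The Fosb ratio rests on an estimated 4.23 and 2.41 fragments. How many of all genes reach such ratios was not counted, and all 4 genes lie near or under 1 FPKM in number 3. Fos, Junb, Npas4 and Nr4a1 were thus lower with AAV-shbrpf1 in pairs 1 and 2 and higher in pair 3, a pattern held by 24.1% of all genes, and whether the pairs differ from each other could not be tested with 1 library each.

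**Figure D2:**
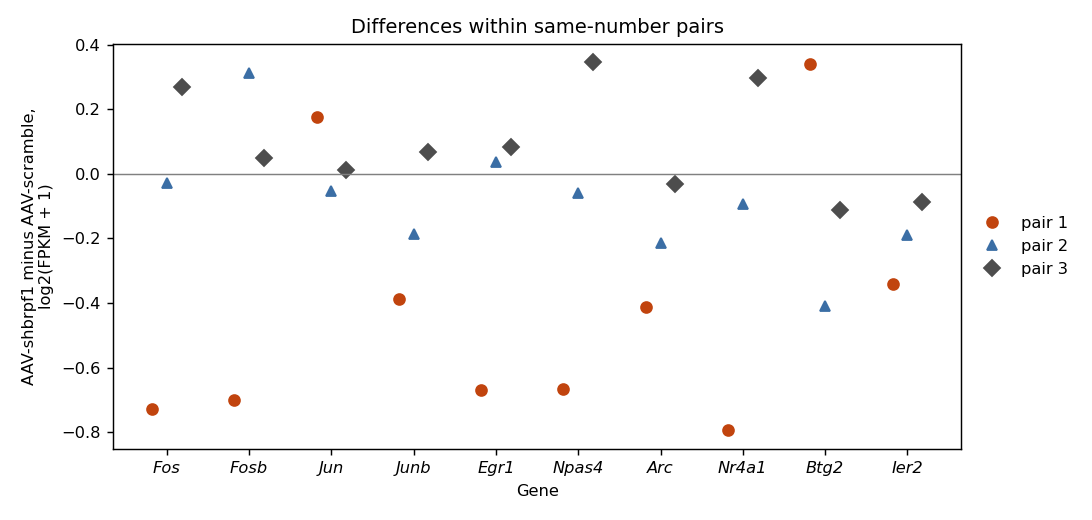
Difference in log2(FPKM + 1), AAV-shbrpf1 minus AAV-scramble, within each same-number pair, 1 point per gene and pair. Pair 1 lies lowest for 8 genes, down to −0.79 for Nr4a1, and above 0 for Jun and Btg2.

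By replicate number, 10 of the 10 members differed, as did 69.4% of all genes (limma F test on log2(FPKM + 1) with the virus in the model, adjusted p under 0.05), so a difference between numbers is by itself common here. The number accounted for a median of 96.5% of the sum of squares of the members, with 87.9% for Btg2 as the lowest, and for a median of 92.1% over all genes. The Jun call was lost without AAV-scramble library 1 (adjusted p = 0.0566), and that of Btg2 without AAV-shbrpf1 library 3 (0.0526) or AAV-scramble library 3 (0.0664). Between numbers 2 and 3, 8 members were higher in number 2 and passed, against 12.9% of all genes, and 2, Jun and Btg2, were lower and passed, against 34.3%. For all genes this split of 1651 higher and 4386 lower became 2179 and 3344 with upper-quartile scaling and 2378 and 2380 with quantile normalization, and the median difference of all genes, −0.25, became −0.14 and −0.01. The 8 members stayed higher in number 2 and past the threshold under both scalings, and Jun lost its call under the first (adjusted p = 0.0587). Of the 8, Fosb and Arc passed the filter on low values only through number 2. Both libraries numbered 3 lay below the other 4 in 8 members, against 6.58% of all genes, and above them in Jun and Btg2, against 16.3%. Without both libraries numbered 3, 6 of the 10 members differed between numbers 2 and 1, against 66% of all genes, and with a filter at 5 FPKM 5 of the 5 tested differed between the 3 numbers, against 76.2%.

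Npas4 had the largest log2 difference of number 2 minus number 3, 3.71 (SE 0.24, limma adjusted p = 0.00485), and its mean FPKM was 25.5-fold higher in number 2, at 24.3 FPKM, against 0.953 FPKM in number 3. Arc followed in fold, with 9.96 FPKM in number 2 against 0.425 FPKM in number 3, 23.4-fold (log2 difference 2.94, SE 0.15). Fos was 19.7-fold higher in number 2, at 12.2 FPKM against 0.620 FPKM (log2 difference 3.03, SE 0.24), and Junb 11.5-fold, Egr1 10.4-fold, Nr4a1 5.63-fold and Ier2 3.28-fold. On the log2(FPKM + 1) scale, which understates changes of low genes, Egr1 differed by 2.83, Junb by 2.49, Fosb by 1.82, Nr4a1 by 1.61 and Ier2 by 1.26. Jun, by contrast, was 0.728-fold in number 2, at 24.6 FPKM against 33.9 FPKM (log2 difference −0.44, SE 0.10, adjusted p = 0.020), and Btg2 was 0.486-fold, at 6.35 FPKM against 13.1 FPKM (−0.95, SE 0.19, adjusted p = 0.0135). The calls of Jun and Btg2 were the less stable ones: that of Jun was lost without AAV-shbrpf1 library 2 (adjusted p = 0.101), AAV-shbrpf1 library 3 (0.0744) or AAV-scramble library 3 (0.0670), and that of Btg2 without AAV-shbrpf1 library 3 (0.0615). The other 8 passed with each library left out in turn.

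Number 1 separated the members further. Between numbers 1 and 3, Fos, Junb, Egr1, Npas4 and Nr4a1 were higher in number 1 and passed, 5 members against 15.8% of all genes, and Jun and Btg2 were lower and passed, 2 against 15.3%. Fos was the highest of them, with a log2 difference of 2.92 (SE 0.24, limma adjusted p = 0.00671), followed by Npas4 at 2.67, Egr1 at 1.54, Junb at 1.28 and Nr4a1 at 1.27. Fosb at 0.75, Arc at 0.44 and Ier2 at 0.41 did not pass (adjusted p = 0.0849, 0.0792 and 0.0707). All 7 calls rest on both libraries numbered 1: without AAV-shbrpf1 library 1 or without AAV-scramble library 1, 0 of all genes passed, and the members' adjusted p rose to between 0.0564 and 0.0890 without AAV-shbrpf1 library 1 and between 0.104 and 0.195 without AAV-scramble library 1. Egr1, Jun, Nr4a1 and Btg2 also lost the call without AAV-scramble library 3 (0.0532, 0.0742, 0.106 and 0.127), and Btg2 without AAV-shbrpf1 library 3 (0.0707). With no filter on low values, Egr1 (0.0505), Jun (0.0514), Nr4a1 (0.0900) and Btg2 (0.0951) lost it too.

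Between numbers 2 and 1, 6 members were higher in number 2 and passed (Fosb, Junb, Egr1, Npas4, Arc and Ier2), against 22.9% of all genes, and 0 were lower, against 42.4%. The split of all genes, 2933 higher and 5419 lower, was 4168 and 3968 with quantile normalization. Arc had the largest of these log2 differences at 2.50 (SE 0.15, limma adjusted p = 0.00104), and its mean FPKM was 10.5-fold higher in number 2, at 9.96 FPKM against 0.953 FPKM in number 1. Egr1 followed at 1.30, Junb at 1.21, Fosb at 1.07, Npas4 at 1.03 and Ier2 at 0.85. Fos at 0.11 (95% interval −0.50 to 0.72), Nr4a1 at 0.34, Jun at 0.14 and Btg2 at −0.12 did not pass, and of these Fos and Nr4a1 turned below 0 without AAV-shbrpf1 library 1 (−0.31 and −0.11) while Btg2 turned above 0 without AAV-shbrpf1 library 1 or 2 (0.18 and 0.14). Without AAV-shbrpf1 library 1 the calls of Fosb and Npas4 were lost (adjusted p = 0.113 and 0.0739), and that of Fosb also without AAV-shbrpf1 library 2 (0.0676). Nr4a1 passed under quantile normalization (log2 difference 0.72, adjusted p = 0.0487). In FPKM, Fosb, Junb, Egr1, Npas4, Arc and Ier2 fell in the order 2, 1, 3 with no overlap, as did 2.99% of all genes.

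**Figure D3:**
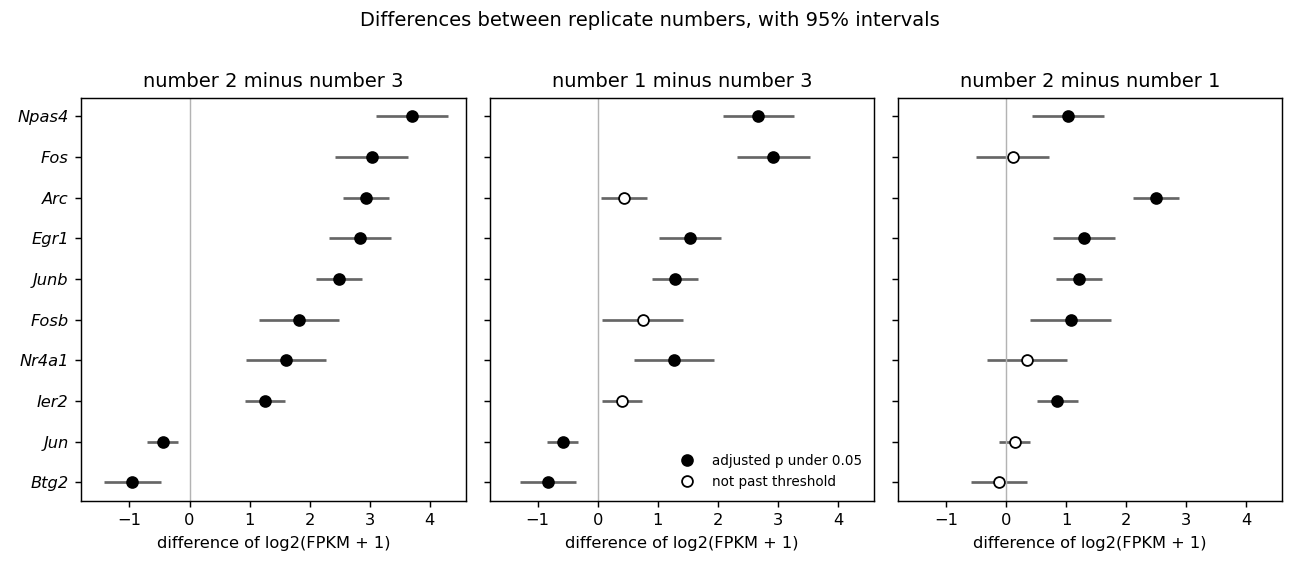
Log2 differences of the 10 genes between replicate numbers with 95% intervals from the limma fit across all genes, for number 2 minus 3, 1 minus 3 and 2 minus 1, filled where the adjusted p passed. The interval of number 2 minus 3 lies above 0 for 8 genes, up to 3.71 for Npas4, and below 0 for Jun (−0.44) and Btg2 (−0.95).

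Set among all 12792 genes by the difference of number 2 minus number 3, 0 genes lay above Npas4, 4 above Fos, 6 above Arc, 8 above Egr1, 12 above Junb, 37 above Fosb, 46 above Nr4a1 and 96 above Ier2. A difference above 1 on the log2 scale was held by 8 of the 10 members and by 1.81% of all genes, and together with the lowest values in number 3 by 8 members and 0.868% of all genes. The median of the members was 2.16 for number 2 minus 3, 1.01 for 1 minus 3 and 0.94 for 2 minus 1, and that of all genes −0.25, 0.01 and −0.25. Base composition moved with the numbers: across 12785 genes, the GC content of the longest transcript correlated with the difference of number 2 minus 3 at r = 0.62, of 1 minus 3 at −0.46 and of 2 minus 1 at 0.74, where genes of 1 set of libraries are not independent. The members are GC-rich, from 49.7% for Btg2 to 62.6% for Junb, and 9 of the 10 exceed the median of tested genes, 49.8%.

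With the trend over GC content and transcript length removed from each library, 10 of 10 members still differed between numbers, against 45.2% of all genes. The same 8 members passed as higher in number 2 than in number 3, against 11.3% of genes, and Jun and Btg2 as lower, against 10.5%. In number 1 against number 3, 7 members passed as higher, Arc and Ier2 now among them (log2 differences 0.67 and 0.65), against 12.9%, and Jun and Btg2 as lower, against 13.9%. Number 2 against number 1 changed most: only Arc passed (log2 difference 1.92, adjusted p = 0.00391), against 19.3% of genes, 0 were lower, against 18.4%, and Egr1 (adjusted p = 0.0503), Junb (0.0666), Npas4 (0.114), Fosb (0.129) and Ier2 (0.210) lost the call. Both libraries numbered 3 still lay below the other 4 in the same 8 members, against 15.2% of genes.

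**Figure D4:**
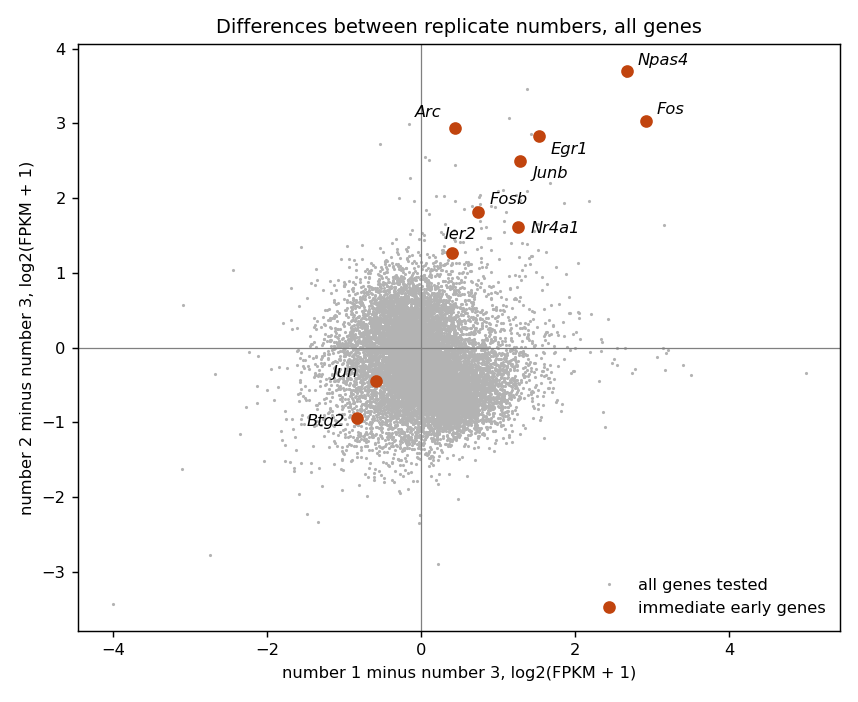
Each tested gene as a grey point, with the log2 difference of number 1 minus number 3 on the x axis and of number 2 minus number 3 on the y axis, and the 10 members named in colour. The members reach 3.71 on the y axis for Npas4 and 2.92 on the x axis for Fos, and Arc lies high on the y axis (2.94) and low on the x axis (0.44).

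Across the 6 libraries, which share their numbers in pairs, Pearson correlations of log2(FPKM + 1) among the 8 members low in number 3 ran from 0.64 to 0.996. Junb and Egr1 were closest, Fos and Nr4a1 correlated at 0.97, and Fos and Arc were farthest apart at 0.64. Jun and Btg2 correlated with each other at 0.92 and with the other 8 at −0.96 to −0.42. The genes were grouped by their values in number 3 of these same libraries, so these signs follow largely from the grouping. Over all genes the number accounted for a median of 92.1% of the sum of squares, and no correlations between pairs of other genes are given for comparison. Of genes outside the list, the 5 whose profile was most like the mean standardised profile of the members, by Pearson r over the 6 libraries, were Stk11ip (0.997), Ccdc184 (0.996), Ptprn (0.994), Rubcn (0.993) and Crtac1 (0.993). Ptprn, which encodes a protein of dense-core vesicle membranes, was at 49.0, 72.4 and 39.6 FPKM with AAV-shbrpf1 and 52.1, 73.7 and 39.2 FPKM with AAV-scramble, so it followed the order 2, 1, 3 over a far narrower range than the members.

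Other genes of the rapid response moved less uniformly. Of 35 listed, 25 passed the filter on low values, 19 differed between numbers, 12 were higher in number 2 than in number 3 and 2 (Ier5 and Mcl1) were lower, against 12.9% and 34.3% of all genes, and their median log2 difference was 0.27. Egr4 and Maff passed the filter only through the libraries numbered 2, so any count of them as higher there is not independent of the filter. The most abundant, Jund, an AP-1 subunit less dependent on stimulation, had 38.9, 126 and 65.0 FPKM with AAV-shbrpf1 and 34.3, 113 and 73.0 FPKM with AAV-scramble, and was lowest in number 1 rather than number 3. Nfil3, a bZIP repressor, was at 21.9, 40.1 and 11.8 FPKM with AAV-shbrpf1 and 25.3, 41.4 and 13.6 FPKM with AAV-scramble, in the order 2, 1, 3. Closer relatives, chosen after their values were seen, included Nr4a3, at 1.66, 4.66 and 0.623 FPKM with AAV-shbrpf1 and 3.11, 4.19 and 0.466 FPKM with AAV-scramble, and Egr4, at 0.0922, 3.33 and 0.138 FPKM with AAV-shbrpf1 and 0.482, 3.44 and 0.309 FPKM with AAV-scramble. Nr4a3 resembled Nr4a1 in its low values in number 3, and Egr4, like Arc, was high in number 2 and low in both others.

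Genes that neurons induce later, after the early factors, differed in direction. Of 12 listed, 8 passed the filter, 3 were higher in number 2 than in number 3 (Nptx2, Vgf and Gpr3), against 12.9% of all genes, and 2 lower (Homer1 and Scg2), against 34.3%. Gpr3 passed the filter only through the libraries numbered 2, so its count as higher there is not independent of the filter. Both lower calls were lost with upper-quartile scaling, with no filter, without ribosomal and mitochondrial features, with the GC and length trend removed, and without any single library other than AAV-scramble library 2. Scg2, a precursor of secretory granule peptides and the most abundant, was at 105, 43.9 and 59.5 FPKM with AAV-shbrpf1 and 96.5, 47.1 and 55.8 FPKM with AAV-scramble, so it was highest in number 1. Rgs2, a regulator of G protein signalling, was also highest in number 1, at 16.6, 8.45 and 7.30 FPKM with AAV-shbrpf1 and 18.1, 8.20 and 7.04 FPKM with AAV-scramble. Vgf, a secreted neuropeptide precursor chosen after its values were seen, had 3.97, 23.4 and 1.17 FPKM with AAV-shbrpf1, against 4.70, 19.8 and 0.933 FPKM with AAV-scramble, a log2 difference of number 2 minus 3 of 3.46.

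Upstream of the members, 16 transcription factors and coactivators were all measured, of which 3 (Mkl1, Crtc1 and Mef2d) were higher in number 2 than in number 3 and 6, Creb1, Crebbp and Ep300 among them, were lower. These shares lie near the 12.9% and 34.3% of all genes, and 3 were lower with quantile normalization. Mef2d, a calcium-responsive MADS-box factor, had 15.4, 37.9 and 20.98 FPKM with AAV-shbrpf1 and 18.5, 41.9 and 21.5 FPKM with AAV-scramble, and Crtc1, a CREB coactivator, 6.64, 20.4 and 12.7 FPKM and 6.53, 20.2 and 13.5 FPKM. Both were highest in number 2 and lowest in number 1. Of 16 kinase and calcineurin genes, 5 were higher and 4 lower in number 2 than in number 3, against the same shares of all genes. Ppp3r1, the calcineurin regulatory subunit, was lowest in number 2, at 81.7, 35.6 and 69.5 FPKM with AAV-shbrpf1 and 89.8, 45.4 and 61.5 FPKM with AAV-scramble, while Mapk3, an ERK kinase, was highest there, at 32.2, 52.9 and 36.0 FPKM and 30.5, 54.1 and 41.2 FPKM. Their medians of number 2 minus 3 were −0.22 for the factors and 0.16 for the kinases, against 2.16 for the members. After removal of the GC and length trend, 4 factors were higher and 3 lower, 3 kinases higher and 0 lower, and 12 of the other rapid response genes higher and 3 lower. Of all genes, 11.3% were higher and 10.5% lower in that setting.

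Dimer partners and corepressors, AU-rich element binding proteins that govern decay of early transcripts, and heat shock genes complete the lists. The shares of all genes, 12.9% higher and 34.3% lower, apply to these too. With the GC and length trend removed, the shares of all genes were 11.3% higher and 10.5% lower. Of 11 partners tested, 2 were higher and 2 lower in number 2 than in number 3, with Arnt2, the partner of Npas4, at 54.1, 63.6 and 51.3 FPKM with AAV-shbrpf1 and 62.0, 63.7 and 49.4 FPKM with AAV-scramble, and Mafg, a small bZIP partner, did not pass (log2 difference −0.09). Of 5 decay factors, 1 was higher (Khsrp, log2 difference 0.45) and 4 lower (Hnrnpd at −0.78 among them), and with the GC and length trend removed 0 were higher and 2 lower. With that trend removed, 1 partner was higher and 0 lower. Of 9 heat shock genes tested, 0 were higher and 1 was lower, and 1 was higher and 1 lower with the trend removed. Hspa8 (−0.09) and Hsp90aa1 (−0.65) did not pass, the second being highest in number 1 at 254 FPKM with AAV-shbrpf1 and 256 FPKM with AAV-scramble. In each of these lists, 0 genes passed between the viruses.

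**Figure D5:**
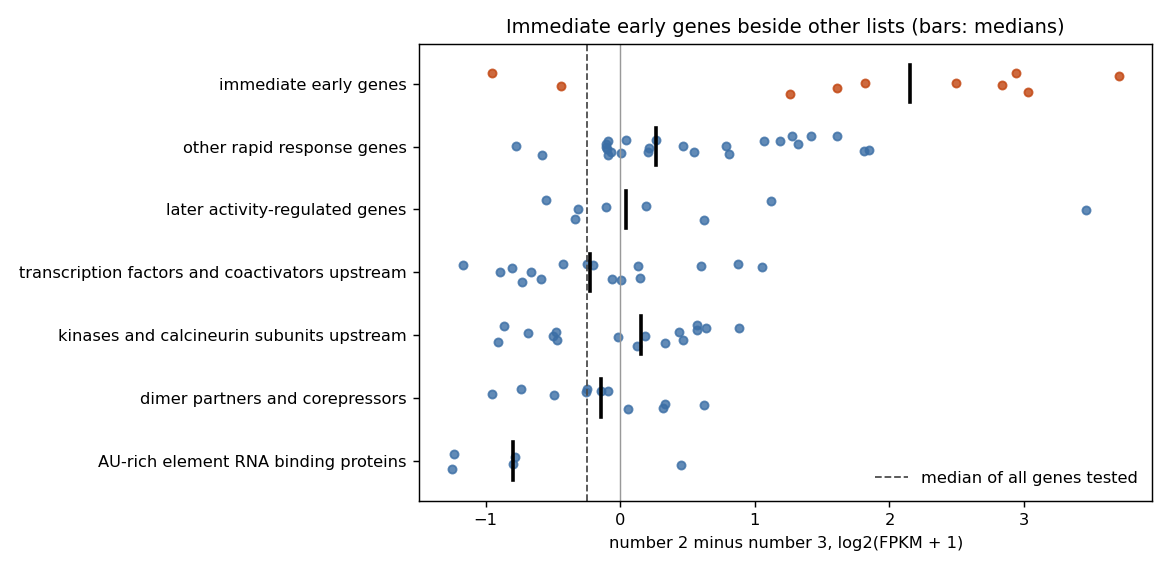
Log2 difference of number 2 minus number 3 for each tested gene of the members and 6 other lists, 1 point per gene, with the median of each list as a bar and that of all genes as a dashed line. The median of the members is 2.16, against 0.27 for other rapid response genes and −0.22 for upstream factors.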

How the data were processed

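Total RNA of 6 libraries, 3 per virus group, was sequenced as paired ends, per the labels' protocols. The authors deposited 1 table of 55335 genes, with no unit in its header. Steps between low values of single-exon genes mark the deposited values as FPKM and also gave the depths. Per the submitters' processing notes, DESeq2, StringTie and FastQC were used, with no role or version stated, and the build was mm9, whereas 54899 of 55154 gene identifiers have the start and end of GENCODE M21 (GRCm38), used here. No source used here names the aligner, the annotation, filters or the strand setting.

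Genes averaging 1 FPKM or more in either group (12792, with all 10 members) were tested as log2(FPKM + 1) by limma (version 3.58.1, R 4.3.3, two-sided, with trend, Benjamini-Hochberg over all genes), for the 2 viruses with no covariate, and for the replicate numbers by an F test and contrasts with the virus in the model. FPKM are not counts, so no count test was run. The fit was tested on simulated data. Deviations from group means correlated at 0.87, 0.83 and 0.57 between libraries numbered 1, 2 and 3 of the 2 groups and at most at 0 otherwise, so the numbers pair the samples, a link taken from the values. Members and 16 gene lists, members included, were chosen with earlier results of these data known. Named from a list are its 2 most abundant genes; others were chosen after their values were seen. The lists of other cell types were used as marker sums: astrocyte markers summed to 120 to 176 FPKM with AAV-shbrpf1 and 128 to 210 FPKM with AAV-scramble, microglial markers to 1.05 to 1.53 FPKM and 1.17 to 2.76 FPKM, and cycling markers to 29.1 to 62.7 FPKM and 32.7 to 58.6 FPKM. Alternatives were a pseudocount of 0.1, no filter or a filter at 5 FPKM, upper-quartile and quantile scaling, the block, and each library left out. Chosen after seeing the data were removal of ribosomal and mitochondrial features, of the trend over GC content and length, and of both libraries of a number. Fragments behind a value were estimated from FPKM, depth and the longest transcript, and counting intervals at 95% cover counting error only.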

Additional observations from a re-analysis of the deposited data

How the results depend on the processing

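Calls between numbers 2 and 3 held for 7 members (Fos, Fosb, Junb, Egr1, Npas4, Arc and Ier2) under every alternative run that tested them, and for Nr4a1 under all but no filter (adjusted p = 0.0507). The genes differing between numbers, 8876, were 7194 of 31057 (23.2%) with no filter, where 9 of 10 members passed and Btg2 did not (adjusted p = 0.0573), 5493 with a filter at 5 FPKM, 4793 to 8885 with 1 library left out, 3943 and 5137 with both libraries numbered 1 or 2 left out, and 5783 with the GC and length trend removed. Of the members, 5 of the 5 tested passed with the filter at 5 FPKM, against 76.2% of all genes, and 6 with both libraries numbered 3 left out, against 66%. With 1 library left out 9 to 10 members passed, against 37.7% to 68% of all genes. Of those tested at 5 FPKM, 3 lay lowest in number 3, and the share of all genes at that filter is not given here. With the replicate block, 0 genes passed between the viruses in all 6 libraries, and 0 to 8 with 1 pair left out (8 without pair 2, 1 without pair 3), none of them a member.

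Virus differences of the members had a limma adjusted p of at least 0.782 under each alternative, and their log2 values moved with single libraries. With 1 library left out they ran from −1.26 to 0.72 for Fos, from −0.70 to 0.27 for Fosb, from −0.12 to 0.23 for Jun, from −0.86 to 0.45 for Junb, from −0.98 to 0.48 for Egr1, from −1.31 to 0.82 for Npas4, from −1.13 to 0.69 for Arc, from −0.80 to 0.16 for Nr4a1, from −0.34 to 0.25 for Btg2 and from −0.56 to 0.14 for Ier2. With the replicate block and pair 1 left out, Fos was at 0.12, Fosb 0.18, Jun −0.020, Egr1 0.061, Npas4 0.14 and Nr4a1 0.10, with pair 2 left out Btg2 was at 0.11, and with pair 3 left out 8 members lay between −0.19 and −0.44, farther below 0 than with all pairs. Number 2 minus 1, not past the threshold, turned to −0.25 for Jun, −0.12 for Nr4a1 and 0.12 for Btg2 with the GC and length trend removed, and to 0.16 for Btg2 with quantile normalization; with 1 library left out it ran from −0.31 to 0.54 for Fos, from −0.11 to 0.79 for Nr4a1 and from −0.42 to 0.18 for Btg2. In Fosb of number 3, an estimated 2.41 to 4.23 fragments set the depth limit. The causes were not tested.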

Other observations

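The 10 genes with the largest log2 difference of number 2 minus number 3, taken after the values were seen, held 4 of the members: Npas4, Fos, Arc and Egr1. Acan, which encodes aggrecan, a proteoglycan of the perineuronal nets around many GABAergic interneurons, was another of the 10. It was at 2.60, 9.63 and 0.268 FPKM in AAV-shbrpf1 libraries 1, 2 and 3, against 2.17, 6.73 and 0.232 FPKM in AAV-scramble libraries 1, 2 and 3 (log2 difference 2.86). Its libraries followed the order 2, 1, 3 without overlap between numbers, as did Vgf, also among the 10.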
